A study of Mus musculus with 2 samples.

Results

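The 9 genes Sox2, Sox4, Sox7, Sox9, Sox11, Sox12, Sox17, Sox18 and Sox21, which encode transcription factors of airway, distal lung, progenitor cells and vessels, were followed in the airway epithelium of the fetal mouse lung. They were chosen by name, as probes whose gene name in the scanner output was one of these symbols or a former symbol of one. That gave 22 probes of 41170 on the array and 9 genes of 17315 for which a ratio or a bound was obtained. No probe carried a former symbol. The E18.5 sample was airway epithelium from 1 wild-type male CD-1 fetus (embryonic stage E18.5), and the E14.5 sample came from 1 wild-type male CD-1 fetus (embryonic stage E14.5). In both, epithelium of the airways within the lobes was cut by laser from stained frozen sections of a single lung. RNA was amplified in 1 round, the E18.5 material was labelled with Cy5 and the E14.5 material with Cy3, and both were hybridised to 1 two-colour array of 60-base probes. With 1 sample per age no test was possible, and age, animal, dissection and dye cannot be told apart. In dissected tissue, fewer cells of a type and less RNA per cell cannot be told apart either.

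Sox proteins bind DNA through a conserved HMG box and are sorted into groups by the similarity of that box. In the developing mouse lung, Sox2 (group B) marks the proximal epithelium that forms the airways, and Sox9 (group E) marks the distal tips that branch and later form alveoli. Sox4, Sox11 and Sox12 (group C) are factors of progenitors and differentiating cells in many embryonic tissues, and Sox7, Sox17 and Sox18 (group F) are best known from endothelium. Sox21 (group B) is a repressor present in proximal airway epithelium.

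Probes differed in which part of the transcript they read, and their sequences are shown because probes of the same Sox gene gave different ratios. No annotation of coding sequence was used here, so placements in the HMG box or in coding sequence rest on general knowledge of these genes and on the letters of the probes. A probe each for Sox9 and Sox11 is placed in the HMG box, where family members are most alike. Capitals mark the 29 bases that were identical in both when the probes were aligned without gaps over 39 shared positions. The Sox9 probe maps to chr11:112599086-112599938 on mm8, a span of 853 bases for 60 bases of probe, on the plus strand. The Sox11 probe is at chr12:27928353-27928412 on the minus strand.
Sox9 HMG box probe: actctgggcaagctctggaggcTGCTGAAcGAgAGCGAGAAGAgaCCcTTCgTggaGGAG
Sox11 HMG box probe: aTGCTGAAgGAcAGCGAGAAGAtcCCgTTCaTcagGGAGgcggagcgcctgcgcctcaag
Over the positions that both cover, the probes were 74.4% identical. Signal of these probes may include transcripts of related genes.

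Further probes are placed, on the same basis, in coding sequence outside the box. They are shown because Sox4 has no other probe and because the Sox17 and Sox21 probes gave smaller ratios than the brightest probes of those genes. They lie on the minus strand of mm8 at chr13:28959662-28959721 for Sox4, chr1:4481890-4481949 for Sox17 and chr14:117119024-117119083 for Sox21. Each was open in at least 2 of its 3 forward reading frames. That alone does not place a probe in coding sequence. The brightest probes of Sox2, Sox9 and Sox11, given below, each had 1 open frame, and that of Sox17 had 0.
Sox4 probe: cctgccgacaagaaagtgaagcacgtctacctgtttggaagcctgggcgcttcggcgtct
Sox17 coding probe: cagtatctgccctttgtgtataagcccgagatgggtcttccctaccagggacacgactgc
Sox21 coding probe: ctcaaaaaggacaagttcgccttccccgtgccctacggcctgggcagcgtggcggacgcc
The brightest probes of Sox9, Sox11 and Sox17 lie farther towards the 3′ end than any probe above, and Sox2 has a single probe. Their first 30 bases are given. On mm8 they map to chr3:34843400-34843459 (plus strand) for Sox2, chr11:112603585-112603644 (plus) for Sox9, chr12:27921466-27921525 (minus) for Sox11 and chr1:4481503-4481562 (minus) for Sox17.
Sox2 probe: tggcaatcaaatgtccattgtttataagct
Sox9 brightest probe: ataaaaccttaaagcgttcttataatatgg
Sox11 brightest probe: catttgttcaaaagaccaataaaaatcgtg
Sox17 brightest probe: ctcactgacttattccatttcttgaaagtg
These probes are rich in A and T, while the HMG box probe of Sox11 holds 61.7% G and C.

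A gene was called higher or lower at E18.5 where the ages differed 2-fold or more. Of the 9 Sox genes, 1 was called higher (Sox17), 3 were called lower (Sox4, Sox9 and Sox11) and 5 were called neither. Across the array, the calls took in 17.2% of genes as higher, 10.0% as lower and 72.7% as neither. The 9 Sox genes had a median log2 ratio (E18.5 over E14.5) of −0.35, and all genes one of 0.06. Each gene is represented by its brightest probe, and intensities below are normalized intensities on a linear scale. From the lowest ratio to the highest, the order was Sox11, Sox4, Sox9, Sox21, Sox2, Sox12, Sox18, Sox7 and Sox17. Different probes of a gene had a median standard deviation of 0.33 over 6890 genes of the array. Sox4 and Sox9 (0.18 apart), Sox2 and Sox12 (0.13) and Sox18 and Sox7 (0.16) differed by less than that. The spread over a gene's own probes was wider, with a standard deviation of 0.76 for Sox9, 0.68 for Sox11, 0.69 for Sox17 and 0.41 for Sox21. The steps between Sox11 and Sox4 (0.66) and between Sox9 and Sox21 (0.40) also lie within those spreads. The 3 group F genes all lay above 0 and the other 6 Sox genes all lay below 0. Of those 6, Sox12 (−0.22) lay nearer to 0 than 0.33, and Sox2 (−0.35) barely farther. With all genes at a median of 0.06, either sign was common across the array.

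**Figure D1:**
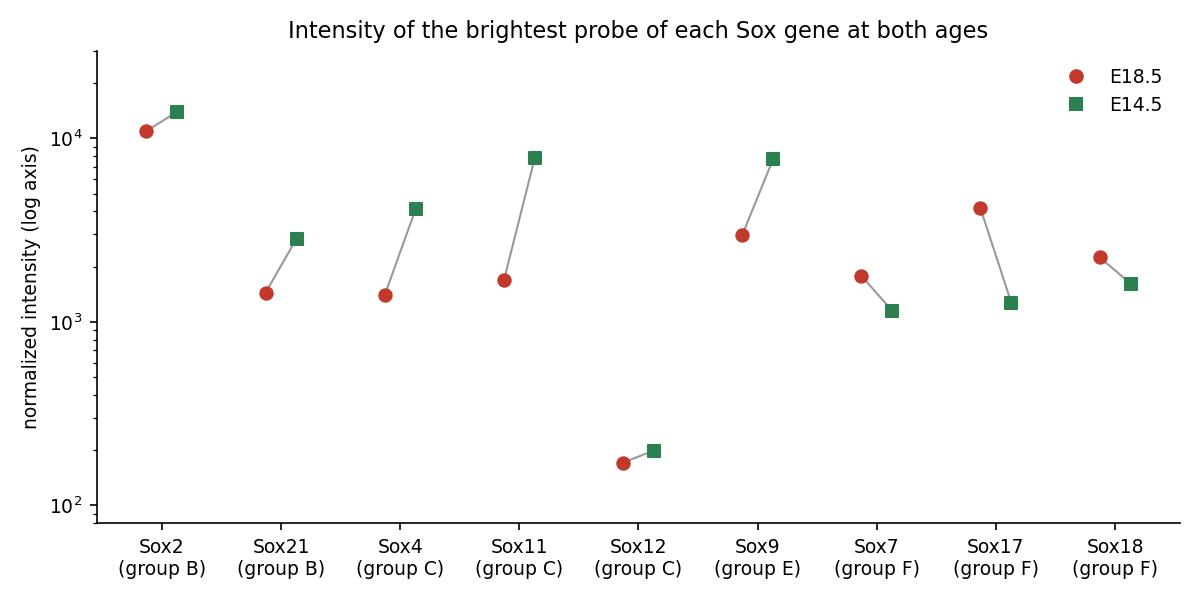
Normalized intensity (log axis) of the brightest probe of each Sox gene at E18.5 (red circles) and E14.5 (green squares), 1 sample per age, with the group of the family in brackets. Levels compare the ages within a gene, not one gene with another. The E18.5 point lies above the E14.5 point for Sox7, Sox17 and Sox18, of which Sox17 is past 2-fold, and below it for the other 6 genes, of which Sox4, Sox9 and Sox11 are past 2-fold.

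Sox2, the factor of the proximal airway, had similar intensity at both ages. It stood at 10958 at E18.5, against 13983 at E14.5, a log2 ratio of −0.35 (1.28-fold lower). The scanner software gave −0.46 with an error of 0.21. That error comes from the software's model of 1 array and holds nothing on differences between animals. Sox2 lies inside the transcript Sox2ot, a long non-coding RNA. A Sox2ot probe at chr3:34869395-34869454, singled out after its value was seen, had 1315 at E18.5 and 630 at E14.5 (1.06, 2.09-fold higher), and the other 2 Sox2ot probes were not well above background at either age. Sox2 and this Sox2ot probe lay on opposite sides of 0.

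Sox21 had a ratio below 0 at all 3 of its probes and was called neither. The brightest, at chr14:117117711-117117770, had 1440 at E18.5 and 2841 at E14.5, a log2 ratio of −0.98 (1.97-fold lower), just inside the 2-fold limit. The scanner software's ratio for this probe, −1.20 with an error of 0.23, was past it. The coding probe printed above had 431 at E18.5 and 483 at E14.5, a ratio of −0.16. The third probe had 174 at E18.5 and 265 at E14.5, a ratio of −0.61. For this dim probe the software's ratio was −1.11 with an error of 0.23, past 2-fold. For the coding probe it was −0.47 with an error of 0.21, within 2-fold.

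Genes of proximal airway cells, whose territory Sox2 marks, were mostly higher. Of 13 genes, 9 were called higher, 1 lower and 3 neither, with a median of 2.19. The highest were Scgb1a1 (8.03), the secretoglobin of club cells, and Calca (7.60, other probe 4.19), which encodes calcitonin and a related peptide of neuroendocrine cells. The lowest was Trp63 (−1.61), the basal cell factor. The median of 12 general epithelial genes was 0.29, with 3 called higher, 1 lower and 8 neither. Krt18 (1.59) and Cdh1 (1.34), a keratin and E-cadherin, were highest, and Cldn4 (−1.17), a claudin, and Epcam (−0.75), a surface adhesion molecule, lowest. Sox2 was called neither on the same array.

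Sox9, the factor of the distal tips, was lower at E18.5. Its brightest probe was printed at 10 places on the array, 2 of which the software set aside as outliers. Over the other 8 spots, intensity ran from 2733 to 3355 (median 2929) at E18.5, and from 7299 to 8612 (median 7562) at E14.5. These spots are copies of 1 probe on 1 array, so their separation holds nothing on differences between animals. The log2 ratio was −1.38 ± 0.03 (SD, n = 8 spots of 1 array, a technical spread), a 2.60-fold lower intensity. The outlier spots had ratios of −1.42 and −1.59. A different probe gave −1.42, with 2027 at E18.5 and 5435 at E14.5. The HMG box probe stood near background at both ages, with a raw signal of 123 over a local background of 52.5 at E18.5, and of 136 over 49.0 at E14.5. Its ratio was −0.08.

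**Figure D2:**
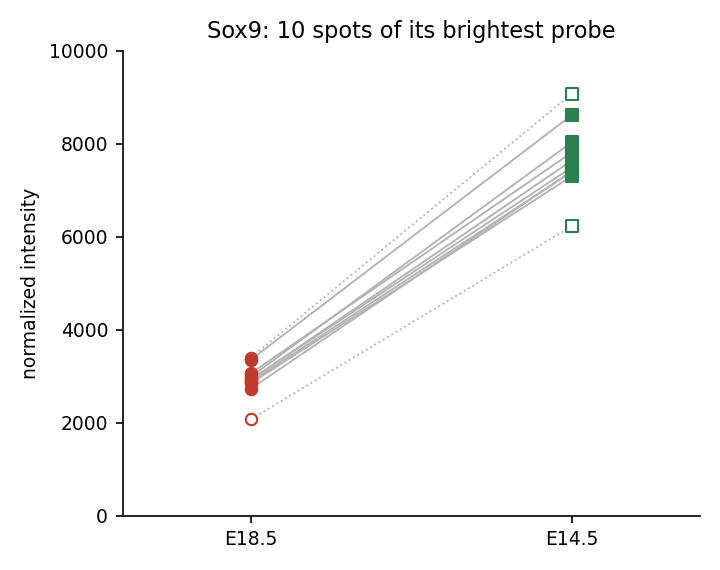
Normalized intensity of the 10 spots of the brightest Sox9 probe at E18.5 and E14.5 on 1 array, with a line for each spot. Open symbols and dotted lines are the 2 outlier spots; the other 8 spots run from 2733 to 3355 at E18.5 and from 7299 to 8612 at E14.5.

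Genes of the distal tip epithelium, the Sox9 territory, were mostly lower too. Of 14 genes, 1 was called higher, 8 lower and 5 neither, with a median of −1.17. Mycn (−5.40, other probe −2.18), a growth-promoting factor, and Hmga2 (−3.15), a chromatin protein of embryonic cells, were lowest. Sftpc (2.54), surfactant protein C, and Bmp4 (0.59), a signal of the tip, were highest. The summed intensity of this list was 273968 at E18.5 and 219572 at E14.5, of which Sftpc alone made 201108 and 34625.

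Sox9 also acts in chondrocytes with Sox5 and Sox6, so cartilage genes were read in the same material. Of 13 such genes, 12 were measured, of which 0 were called higher, 8 lower and 4 neither, with a median of −1.53. Their summed intensity was 13467 at E18.5 and 25688 at E14.5, of which Col2a1 alone made 8458 and 9084 by its brightest probe. Matn1, a cartilage matrix protein, was not well above background at either age. Col11a1 (−2.87) and Col11a2 (−2.11, other probe −0.30), collagen chains of cartilage, were lowest, and Comp (0.57), a matrix protein, and Col2a1 (−0.10), the main cartilage collagen, highest. A second Col2a1 probe was at −3.41. The part of cartilage cells in the lower Sox9 signal was not tested. Smooth muscle genes were lower as well, with 5 of 6 called lower, 0 higher and 1 neither (median −1.48). Myh11 (−2.43) and Actg2 (−1.72) were lowest and Tagln (−0.45, other probe −1.17) and Des (−1.27) highest. Of 14 mesenchymal genes, 0 were called higher, 2 lower and 12 neither (median −0.22), from Foxf1 (−2.12) and Lum (−1.13) to Meox2 (0.94, other probe −0.12) and Tcf21 (0.98). Without normalization 4 mesenchymal genes were called higher.

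Among the group C genes, Sox4 and Sox11 were called lower and Sox12 neither. By brightest probes, Sox11 had the lowest ratio of all 9 genes. Its brightest probe stood at 1680 at E18.5, against 7822 at E14.5, a log2 ratio of −2.22 (4.66-fold lower). That placed it 286th from the lowest among 17315 genes. All 6 Sox11 probes were below 0. The others had ratios of −2.29, −1.64, −1.36, −0.84 and −0.67, so 4 of 6 probes were past 2-fold. With the median over probes the Sox11 ratio was −1.50, and Sox4 (−1.56) was then the lowest of the 9. Sox4, read by a single probe, had 1397 at E18.5 and 4120 at E14.5, a log2 ratio of −1.56 (2.95-fold lower), and the software gave −1.78 with an error of 0.26. Sox12, also read by a single probe, was dim at both ages, with 171 at E18.5 and 199 at E14.5, a ratio of −0.22. Its raw signal was 196 over a local background of 59.5 at E18.5, and 210 over 46.0 at E14.5. The offset added in background correction pulls the ratios of such dim probes towards 0. The software's ratio for Sox12 was −0.50 with an error of 0.22.

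Sox4 and Sox11 are also strong in neurons and in dividing progenitors, and both kinds of gene were read. Of 10 neuronal genes, 8 were measured, and 0 were called higher, 0 lower and 8 neither, with a median of −0.19. The count of lower ones was 1 with a background offset of 16, and 2 with the scanner software's ratio and with the authors' value table. Stmn2 (0.71) and Snap25 (0.53) were highest and Dcx (−0.88) and Nefl (−0.84, other probe −0.97) lowest. Tlx3 was not well above background at either age. Summed neuronal intensity was 3967 at E18.5 and 4487 at E14.5. All 10 cell cycle genes were called lower, with a median of −2.84, from Bub1 (−4.08), a spindle checkpoint kinase, and Mki67 (−3.54), the Ki-67 antigen, to Cdk1 (−1.73), the mitotic kinase, and Plk1 (−2.13), another kinase of mitosis. Summed cell cycle intensity was 52399 at E18.5 and 347132 at E14.5. Whether the share of dividing cells bears on the lower Sox4 and Sox11 signal was not tested.

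Of the group F genes, Sox17 was called higher, and Sox7 and Sox18 were called neither, with ratios above 0. Sox17 stood at 4167 at E18.5, against 1266 at E14.5, a log2 ratio of 1.72 (3.29-fold higher) and the only one of the 9 past 2-fold in that direction. Its coding probe had 1232 at E18.5 and 735 at E14.5, a ratio of 0.74, within 2-fold. Of the other 2 Sox17 probes, 1 was well above background at E18.5 only, with a bound of 1.07-fold. Its raw signal was 103 over a local background of 54 at E18.5, and 102 over 43 at E14.5. So near background, that bound gives no direction. The other Sox17 probe lies on the opposite strand of mm8 and was not well above background at either age. Sox7, read by a probe at chr14:62904692-62904751 (plus strand), had 1782 at E18.5 and 1148 at E14.5 (0.63, 1.55-fold higher). Its second probe was well above background at E18.5 only, with a bound of 1.02-fold. That probe's raw signal was 107 over a local background of 57.5 at E18.5, and 110 over 47 at E14.5. Its bound gives no direction either. Sox18, read by a single probe at chr2:181599490-181599549 (minus strand), had 2247 at E18.5 and 1617 at E14.5 (0.47, 1.39-fold higher). The Sox17 ratio was farther from 0 than those of its 2 relatives by its brightest probe, and close to the Sox7 ratio by its coding probe.

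**Figure D3:**
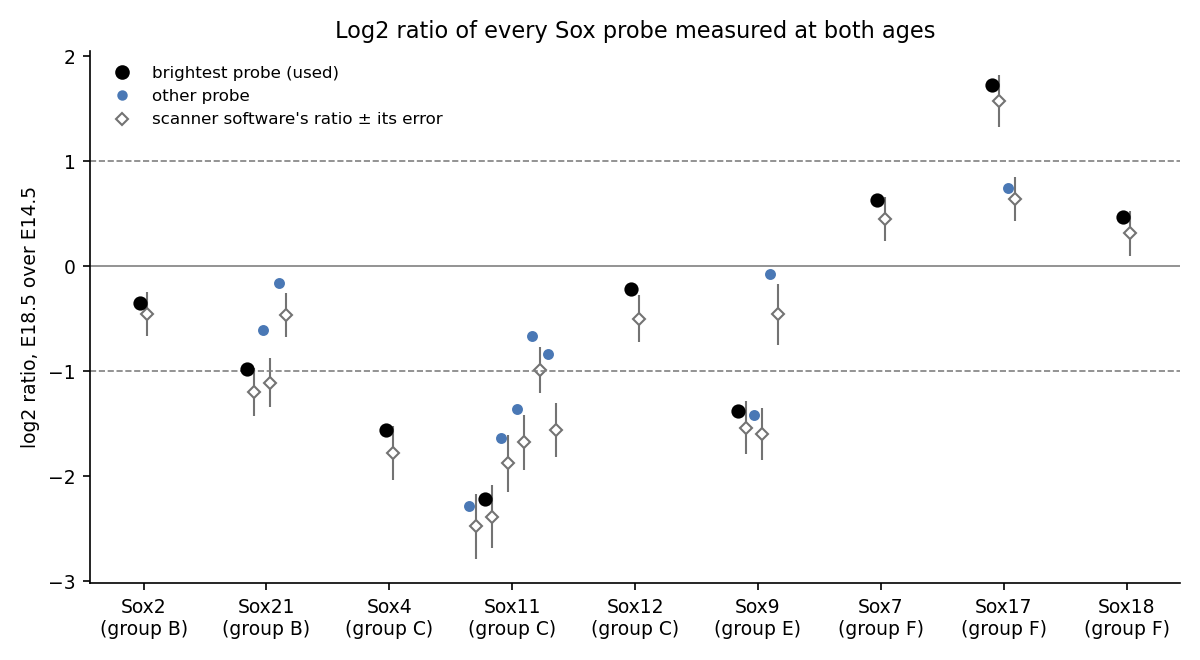
Log2 ratio of E18.5 over E14.5 for every Sox probe well above background at both ages, with probes of a gene running from the 3′-most on the left to the farthest upstream on the right. Filled points are loess ratios (black for the brightest probe), diamonds the scanner software's ratios with its error, and dashed lines mark 2-fold; Sox17 is above the upper line by its brightest probe and Sox4, Sox9 and Sox11 are below the lower one.

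Endothelial genes were read beside group F. Of 19 genes of blood endothelium, 10 were called higher, 1 lower and 8 neither, with a median of 1.11. Kdr (4.13), the VEGF receptor of vessels, and Vwf (3.08), von Willebrand factor, were highest, and Erg (−1.17), a transcription factor of vessels, and Tie1 (0.09), an endothelial receptor, lowest. Summed intensity was 166037 at E18.5 and 45099 at E14.5, with 71669 and 4090 of these from Kdr. None of the 19 was below background at both ages. Of 6 lymphatic genes measured, 3 were called higher, 0 lower and 3 neither (median 0.75). Reln (3.60) and Lyve1 (3.21) were highest, and Prox1 (−0.64), which Sox18 activates in mouse lymphatic precursors, and Pdpn (−0.71) lowest. Of 10 leukocyte genes, 8 were called higher, 0 lower and 2 neither (median 2.03), from Cd68 (0.33) and Laptm5 (0.99) to Mrc1 (3.03) and Ptprc (3.21). Sox17 has also been found in mouse airway epithelium. How much of the Sox7, Sox17 and Sox18 signal came from vessels in the dissected pieces was not tested.

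**Figure D4:**
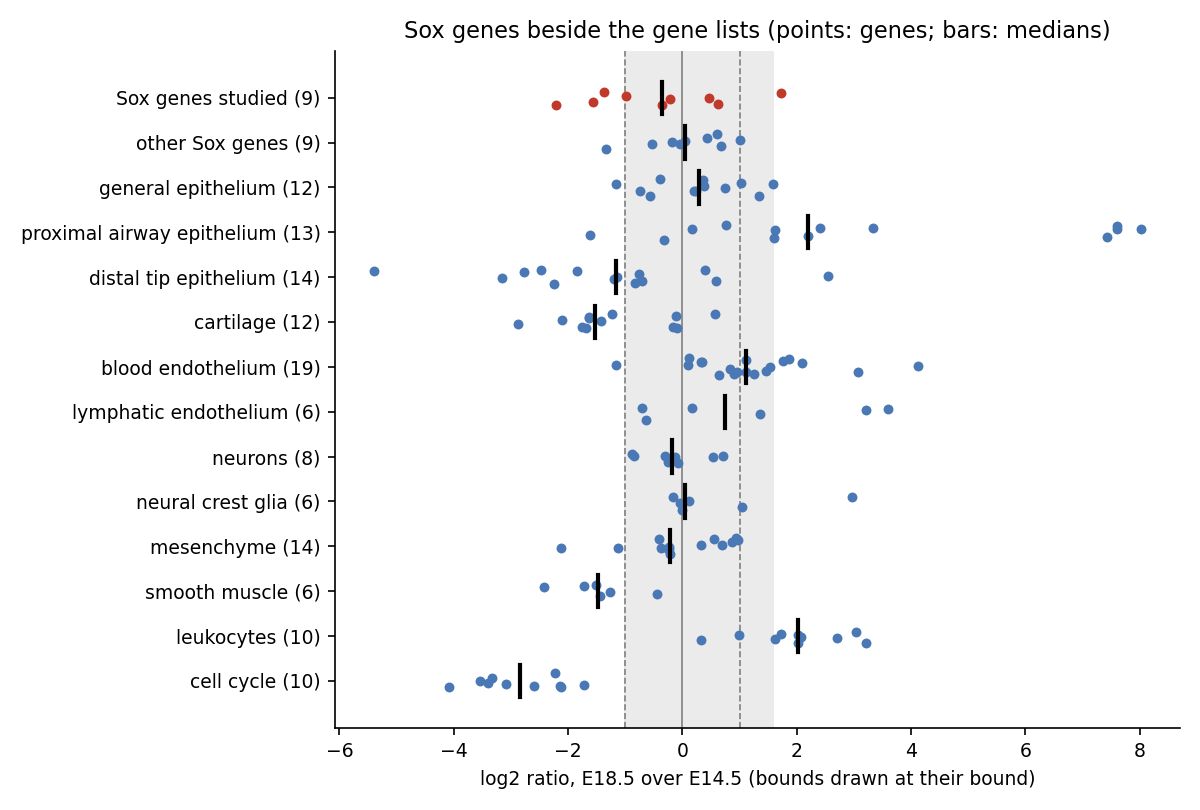
Log2 ratio of E18.5 over E14.5 of the measured genes of each list, with the 9 Sox genes in red at the top and the number measured in brackets. Black bars are medians, dashed lines mark 2-fold, and the grey band runs from the 10th to the 90th percentile of all genes; medians run from −2.84 for cell cycle genes to 2.19 for proximal airway genes.

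In all 4 Sox genes with several probes measured at both ages, the probe farthest upstream had a ratio nearer 0 than the 3′-most probe. Distances in these genes are counted in genomic bases of mm8, so any intron between probes is included. In Sox11, ratios were −2.29 and −2.22 at the 2 probes nearest the 3′ end, −1.64 at 3316 bases upstream, −1.36 at 5842, −0.67 at 6052 and −0.84 at 7409. The signal also differed: 1393 at E18.5 and 6825 at E14.5 for the 3′-most probe, against 147 and 264 for the HMG box probe. In Sox9 the ratio was −1.38 at the 3′-most probe, −1.42 at 1801 bases upstream and −0.08 at 3706. In Sox21 it was −0.98 at the 3′-most probe, −0.61 at 661 bases and −0.16 at 1313. In Sox17 it was 1.72 at the 3′-most probe and 0.74 at 387 bases. The software's ratios, made without the offset, also lay nearer 0 at the farthest probe: −1.56 against −2.48 for Sox11, −0.46 against −1.54 for Sox9, −0.47 against −1.20 for Sox21 and 0.64 against 1.57 for Sox17. Among 6132 other genes with outermost probes at least 300 bases apart, the 3′-most probe was farther from 0 in 57.4% and brighter in 78.4%. Their median absolute log2 ratio was 0.54 at the 3′-most probe and 0.41 at the 5′-most. The array lists the 2 Sox11 probes nearest the 3′ end under a different transcript record from the other Sox11 probes. The same holds for the 3′-most Sox21 probe. In these genes, position and transcript record cannot be told apart. What the difference between probes comes from was not tested.

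**Figure D5:**
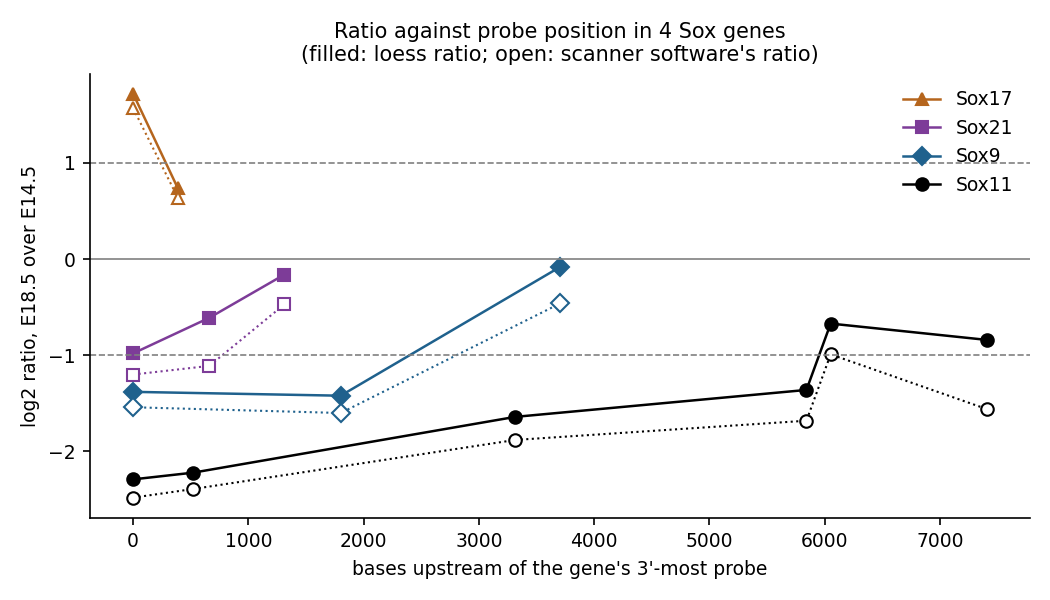
Log2 ratio of E18.5 over E14.5 for probes of Sox17, Sox21, Sox9 and Sox11 against distance upstream of the gene's 3′-most probe. Distance is in genomic bases of mm8. Filled symbols are loess ratios and open symbols the scanner software's; in each gene the farthest probe lies nearer to 0 than the 3′-most.

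Of the other 11 genes of the Sox family, 9 were measured, of which 0 were called higher, 1 lower and 8 neither, with a median of 0.04. The count of higher ones was 1 with a background offset of 16, with median centring and without normalization. The count of lower ones was 0 with the median over probes and 2 with the scanner software's ratio. The lower one was Sox5 (−1.34, 2.53-fold), which works beside Sox9 in cartilage, with 383 at E18.5 and 968 at E14.5. That value is from a probe the array lists under the older name A730017D01Rik, and the other measured Sox5 probes were at −0.51 and −0.29. Sox6, its close relative, was at −0.19 with 3744 at E18.5 and 4281 at E14.5. Sox13 (group D, as are Sox5 and Sox6) was at 1.00 after rounding, just under 2-fold, with 746 at E18.5 and 374 at E14.5. Sox30 and Sry were not well above background at either age. Sox3 was dim at E18.5 and measured at E14.5, which makes it at least 1.45-fold lower. Sox10, a factor of neural crest glia, was at 0.68, beside a glial list with 2 of 6 measured genes called higher, 0 lower and 4 neither (median 0.05). The lowest glial gene was Fabp7 (−0.17) and the highest S100b (2.97).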

How the data were processed

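The scanner outputs given for both samples were identical in 115 columns and were read as 1 array. Per the file headers and the submitters' processing notes, Agilent Feature Extraction 9.5.3.1 made them. They hold deposited mean and local background intensities, without subtraction, and the software's background-subtracted, dye-normalized intensities. The deposited log10 ratio of red over green and its error come from the same software. The deposited outlier and background flags are other values of it. Probe coordinates are on mm8. A further table of values from the authors gives intensities on a linear scale: each column was the software's processed intensity times 0.339 with a floor of 15, uncentred, with medians of 130.2 at E18.5 and 129.1 at E14.5.

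Intensities were corrected with normexp (offset 50) and normalized by loess (span 0.3, 4 iterations; controls and outliers at weight 0) in limma 3.58.1 under R 4.3.3. The procedure was tested on simulated data with known changes placed only in spots clearly above background, so that test does not cover dim probes. Tables were handled in Python 3.11.15 with pandas 2.3.3 and numpy 2.4.6, and plots drawn with matplotlib 3.10.9. Since loess centres the ratios, it removes any change that most genes share. Control spots (1639) and outlier probe spots (160) were left out. Repeated spots were averaged (median SD 0.04 on the log2 scale, 204 probes). Where a gene had several probes, the brightest one well above background at either age was used. A probe well above background at 1 age only gives a bound: its signal over the higher of the lowest detected signal and its own signal in the dim channel. Current symbols came from RefSeq genes of GRCm38.p6, used for names only (33099 probes named).

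Of all probes, 78.7% were well above background at E18.5 and 75.2% at E14.5, and 0 were saturated. The single array limits precision. No test was made, and calls are by size, at 2-fold. The members, the 13 other lists and the naming rule (all 9 Sox genes, other Sox genes past 2-fold, and the 2 highest and 2 lowest genes of each list measured in both channels) were chosen with earlier results of these data known. Genes outside the rule that are given here are Sox2ot, further Sox genes, and Matn1 and Tlx3, which are named as dim at both ages. Some items that the rule would name are not reported here.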

Additional observations from a re-analysis of the deposited data

How the results depend on the processing

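Each value was recomputed under 9 alternatives. The count of Sox genes at least 2-fold higher was 1 in all 9. The count at least 2-fold lower was 3 in 7 of them and 4 with the scanner software's log ratio and with the authors' value table, where Sox21 passed the limit. None of the 9 Sox genes changed sign in these settings. With the median over probes, Sox11 came to −1.50 (Sox4 stayed at −1.56, then the lowest), Sox17 to 1.23 and Sox21 to −0.61. Sox12 ranged from −0.50 to −0.08 and Sox2 from −0.46 to −0.19. With the software's ratio, 2637 of all genes were at least 2-fold lower, against 1738 in the main setting. Of 234 list counts recomputed, 15 moved by over 1.5 times, by at most 4 genes each. Leaving out normalization moved the median of all genes to 0.17, against 0.06, and none of the 9 changed its call there. No paired analysis was possible because each age has 1 sample. For the same reason no sample could be left out. The dim probes of Sox12 and the HMG box probes limit what can be read at those sites.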
